A study of Mus musculus with 16 samples.

Results

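A set of 30 podocyte genes was followed in embryonic mouse kidneys, at embryonic day 17.5, from which methyltransferases of the Polycomb complex PRC2 had been removed. The members were taken from a list of slit diaphragm, basement membrane, cytoskeletal and transcription factor genes, and a probe belonged to a member when its RefSeq accession did. They carried 48 of the 56605 distinct probes on the array, and 44 of these probes were well above background often enough to be tested. Of the 30 members, 29 were measured among 15646 genes. The exception was Iqgap2, a scaffold protein of the actin cytoskeleton, whose 2 probes were well above background on 2 and 0 of the 16 arrays.

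All kidneys came from C57BL/6 mice, and each of 4 genotype groups had 4 arrays. The control group was wild type per the labels, whose titles name a kidney pair for these samples. The Ezh2-KO group had lost both Ezh2 alleles by conditional deletion in Six2-positive nephron progenitors and kept wild-type Ezh1. The Ezh1-het group carried the same Ezh2 deletion with 1 germline Ezh1 allele lost, and the double-KO group carried it with both germline Ezh1 alleles lost. Ezh2 was therefore deleted only in the Six2 lineage, which forms nephron epithelium including podocytes, whereas the Ezh1 alleles were lost in every cell. Each array compared its sample, in the dye Cy5, with RNA of control 1, in Cy3, so a value is log2(Cy5/Cy3) and the array of control 1 set that RNA against itself.

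Podocytes are the epithelial cells that wrap the capillaries of the glomerulus with interdigitating foot processes. The gap between neighbouring foot processes is bridged by the slit diaphragm, a sheet of cell adhesion proteins tied to actin, and the cells sit through integrins on a basement membrane of laminin and collagen IV that they help to build. Their identity is set by transcription factors such as Wt1, Lmx1b and Tcf21, and loss of many of the genes listed here causes protein leak into the urine.

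The Ezh1 probe followed the labels, with log2 ratios of -0.08 ± 0.26 (SD, n = 4) in control, 0.05 ± 0.33 in Ezh2-KO, -1.13 ± 0.20 in Ezh1-het and -4.55 ± 0.08 on the double-KO arrays. Of 5 Ezh2 probes, 1 differed from control by -3.53 to -3.19 log2 units in the 3 knockout groups, and the other 4 by -0.58 to -0.22. The share of probes with a Cy5 signal well above background ran from 53.1% on control 2, the weakest array, to 63.4%. Control 3, Ezh2-KO 1 and double-KO 4 were the lowest arrays of their groups for 14, 17 and 14 of the 29 measured members, and Ezh2-KO 4 was the highest of its group for 15. The arrays lay on 2 slides, with replicates 1 and 2 of every group on slide 1 and replicates 3 and 4 on slide 2.

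The largest number of calls among the podocyte genes was in the Ezh1-het kidneys. There 9 of 29 measured members rose past the threshold (limma, Benjamini-Hochberg adjusted p under 0.05 over all genes) and 0 fell, against 7.81% of all genes called, 5.91% higher and 1.9% lower. The 9 were Ptpro, Thsd7a, Podxl, Nphs1, Lama5, Itga3, Col4a4, Sema3g and Plce1. The members were chosen with earlier results of these data known, so their share beside that of all genes is a description and no independent test. Actn4 passed as lower in Ezh1-het with the slide as a block (-0.22, adjusted p = 0.0427), Magi2 with only the compared groups in the fit (-0.41, adjusted p = 0.0271), and both with array weights (-0.23, adjusted p = 0.0181, and -0.39, adjusted p = 0.0424), where 15.2% of all genes were called. In Ezh2-KO 2 members rose and 0 fell, against 3.08% of all genes called, 2.4% higher and 0.677% lower. In double-KO 2 rose and 1 fell, against 4.62%, 3.71% higher and 0.914% lower. Without regard to the test, the arrays of 9 members were all higher and of 2 all lower than every control in Ezh1-het, against 12.6% and 5.23% of all genes. The counts were 3 and 1 in Ezh2-KO (7.91% and 3.31%) and 2 and 1 in double-KO (6.35% and 2.98%). The 2 that rose in all 3 comparisons were Lama5 and Itga3, and the member that fell in double-KO was Actn4. In all, 19 of 29 members passed the threshold in none of the 3 comparisons, which share the same 4 control arrays. In bulk tissue, fewer podocytes and less RNA per podocyte cannot be told apart.

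The median difference over the 29 members was 0.29 in Ezh1-het, where the median of all genes was 0.05. It was 0.12 in Ezh2-KO and 0.08 in double-KO, with all-gene medians of 0.06 and 0.01. Centring each array on its median in place of loess moved the all-gene medians to 0.44 in Ezh1-het, 0.41 in Ezh2-KO and 0.38 in double-KO, and the members' medians to 0.66, 0.43 and 0.27. Set against the all-gene median, the members' median in double-KO was thus above it with loess and below it with median centring. The group mean was highest in Ezh1-het for 17 of 29 members and lowest in control for 13. The shares over all genes were not computed for these counts. Ezh1-het also had the largest share of all genes called higher than control, at 5.91%. Of the 9 members called in Ezh1-het, all stayed above the all-gene median with median centring, by 1.19 for Ptpro, 0.99 for Lama5, 0.12 for Sema3g, 0.07 for Col4a4 and 0.04 for Plce1. Without controls 2 and 3 the members called were Lama5 and Itga3 in Ezh1-het, 0 in Ezh2-KO, and Itga3 and Actn4 in double-KO. Of all genes, 1.5% were then called in Ezh1-het, 0.499% in Ezh2-KO and 2.88% in double-KO.

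**Figure D1:**
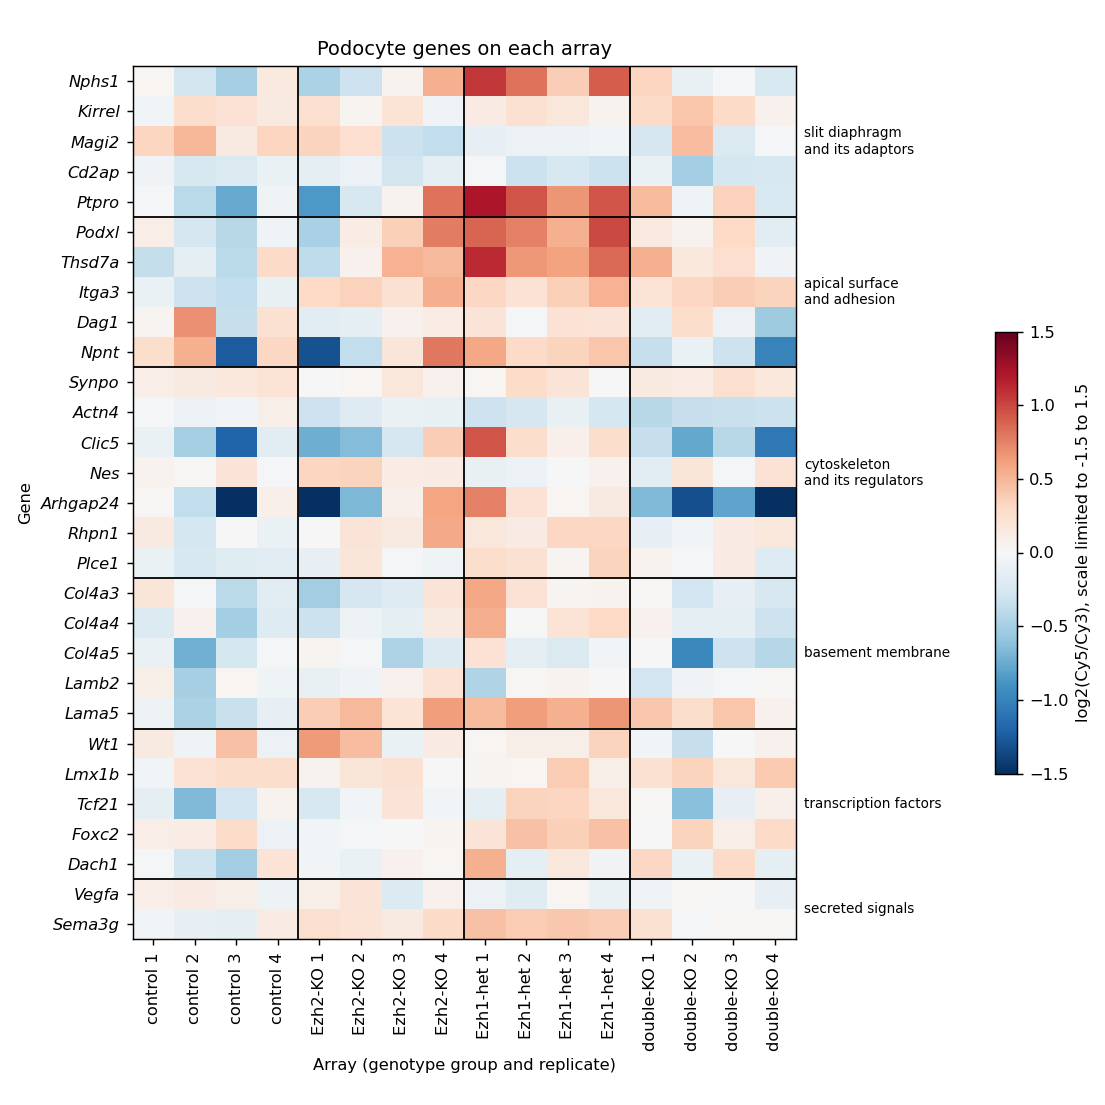
Log2(Cy5/Cy3) of the 29 measured podocyte genes (rows, grouped by role) on each of the 16 arrays (columns, 4 per genotype), with colour limited to between -1.5 and 1.5. Nphs1, Ptpro, Podxl and Thsd7a are above 0 on all 4 Ezh1-het arrays, whereas control 3, Ezh2-KO 1 and double-KO 4 hold the lowest values of Arhgap24, at -1.97, -1.78 and -1.74.

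**Figure D2:**
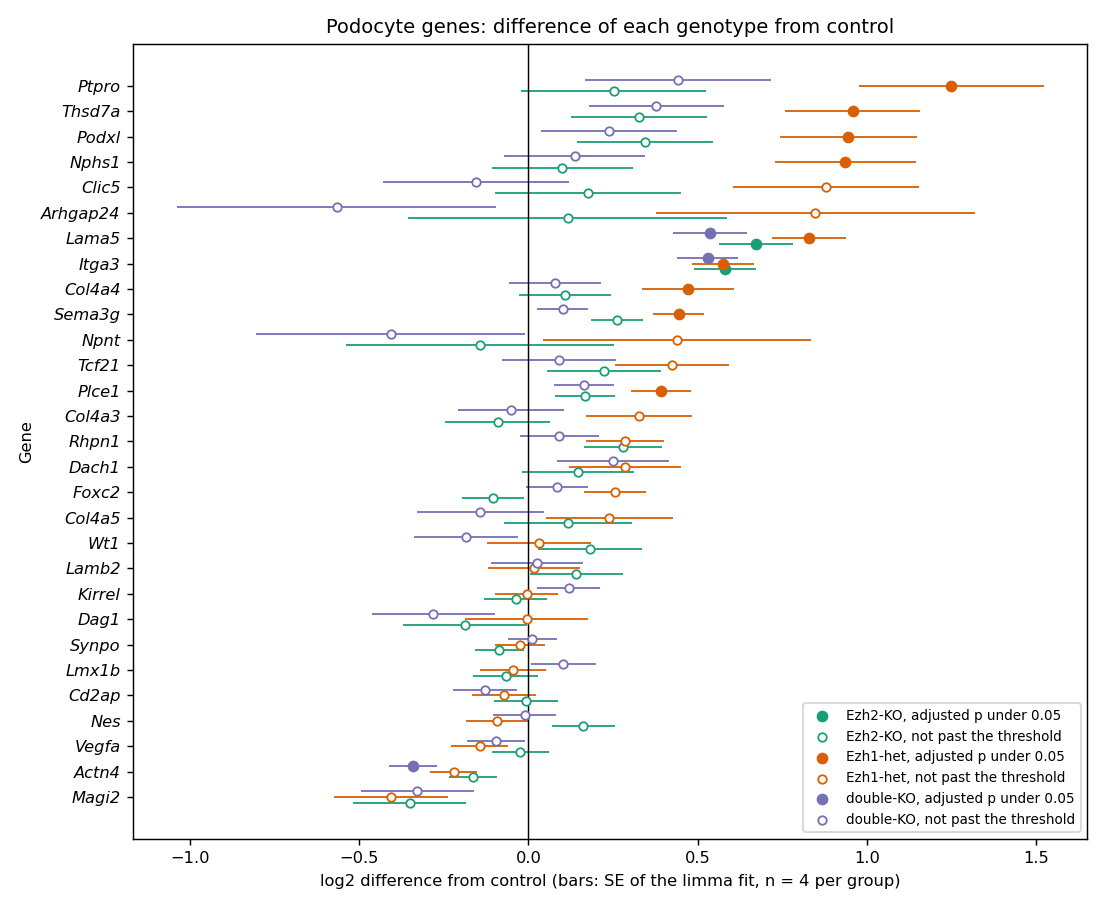
Difference in log2(Cy5/Cy3) from control for each of 29 podocyte genes in Ezh2-KO, Ezh1-het and double-KO, with the standard error of the limma fit (n = 4 arrays per group); filled points have an adjusted p under 0.05. In Ezh1-het 9 points are filled, from 0.39 for Plce1 to 1.25 for Ptpro, and Actn4 is the filled point below 0, in double-KO (0.26 with median centring, where the all-gene median is 0.38).

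The promoters of members that changed were read from RefSeq sequence (build GRCm38.p6). A window of 250 bases before the annotated start was available for 23 of 30 members, and Col4a3, Foxc2, Arhgap24, Podxl, Synpo, Wt1 and Rhpn1 are named only. The windows of 6 members on which the results turn are shown 5′ to 3′ on the gene's strand, with CG dinucleotides in capitals because unmethylated CG-rich promoters are the usual landing sites of PRC2. Nphs1 (chr7:30459808-30460057, plus strand), Ptpro (chr6:137252049-137252298, plus strand) and Thsd7a (chr6:12749254-12749503, minus strand) rose in Ezh1-het. Lama5 (chr2:180225860-180226109, minus strand) and Itga3 (chr11:95076715-95076964, minus strand) rose in all 3 knockout groups, and Actn4 (chr7:28962333-28962582, minus strand) fell in double-KO.
Nphs1: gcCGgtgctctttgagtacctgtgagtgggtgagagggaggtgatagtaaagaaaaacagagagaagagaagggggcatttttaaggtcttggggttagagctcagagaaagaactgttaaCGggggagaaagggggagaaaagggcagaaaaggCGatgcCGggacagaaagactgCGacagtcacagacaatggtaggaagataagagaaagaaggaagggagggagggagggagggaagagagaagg
Ptpro: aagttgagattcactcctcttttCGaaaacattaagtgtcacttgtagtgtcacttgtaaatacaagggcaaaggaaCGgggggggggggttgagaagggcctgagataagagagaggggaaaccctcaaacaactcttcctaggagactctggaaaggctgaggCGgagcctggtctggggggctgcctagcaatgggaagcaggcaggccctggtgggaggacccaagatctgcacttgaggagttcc
Thsd7a: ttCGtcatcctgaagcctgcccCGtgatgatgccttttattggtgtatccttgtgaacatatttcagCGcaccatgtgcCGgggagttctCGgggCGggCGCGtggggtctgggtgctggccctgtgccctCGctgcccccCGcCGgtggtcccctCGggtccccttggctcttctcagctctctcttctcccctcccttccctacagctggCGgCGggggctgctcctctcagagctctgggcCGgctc
Lama5: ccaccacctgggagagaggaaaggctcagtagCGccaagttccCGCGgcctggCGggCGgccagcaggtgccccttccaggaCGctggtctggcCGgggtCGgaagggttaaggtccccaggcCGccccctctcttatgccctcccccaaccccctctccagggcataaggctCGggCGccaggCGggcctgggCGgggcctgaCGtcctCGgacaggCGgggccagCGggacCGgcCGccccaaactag
Itga3: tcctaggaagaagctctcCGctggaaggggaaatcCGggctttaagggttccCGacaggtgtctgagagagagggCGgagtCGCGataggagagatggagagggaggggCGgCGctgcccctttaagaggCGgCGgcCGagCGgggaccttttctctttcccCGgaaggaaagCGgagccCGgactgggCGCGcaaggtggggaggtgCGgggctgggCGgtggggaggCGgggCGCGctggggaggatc
Actn4: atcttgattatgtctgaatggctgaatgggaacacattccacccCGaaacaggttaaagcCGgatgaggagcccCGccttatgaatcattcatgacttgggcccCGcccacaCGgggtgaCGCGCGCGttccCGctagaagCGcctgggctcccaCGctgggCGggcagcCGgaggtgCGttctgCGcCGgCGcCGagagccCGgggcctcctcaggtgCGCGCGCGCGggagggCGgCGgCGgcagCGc

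The Ptpro window held 3 CG dinucleotides and that of Nphs1 held 5, whereas Thsd7a had 15, Lama5 19, Itga3 22 and Actn4 29. Over the 23 members the median was 15, against 6 over 27025 genes with a window. The 8 members called in Ezh1-het that had a window had a median of 9 (range 3 to 22). The 15 others had a median of 19 (range 3 to 33). They include Iqgap2, which was not tested and held the 33, while the highest tested one was Cd2ap with 31. These counts are a description, with no test. Motifs were searched on both strands, and overlapping matches were counted. GCGNGGGCG, a sequence bound by zinc-finger factors of the Wt1 and Egr type, occurred in 1 of 23 windows, that of Dag1, and in 4.63% of all windows. TAATTA (homeodomain type) and GTAAACA (forkhead type) occurred in 0 of 23, and in 4.91% and 3.06% of all windows.

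In the group of 5 slit diaphragm genes and adaptors, in which Ptpro, of the apical membrane, was placed, Nphs1 and Ptpro rose in Ezh1-het. Nphs1 encodes nephrin, the adhesion protein that spans the slit. Its log2 ratios on arrays 1 to 4 were 0.03, -0.27, -0.50 and 0.14 in control, -0.47, -0.31, 0.05 and 0.54 in Ezh2-KO, 1.06, 0.81, 0.37 and 0.91 in Ezh1-het, and 0.33, -0.11, -0.03 and -0.23 on the double-KO arrays. All Ezh1-het arrays were above all controls, and the Ezh2-KO and double-KO arrays overlapped with control. Nphs1 was 1.91-fold higher in Ezh1-het than in control (log2 difference 0.94, SE 0.21, n = 4 per group, adjusted p = 0.0139), by 1.06 on slide 1 and 0.82 on slide 2. The difference from control was 0.10 (SE 0.21) in Ezh2-KO and 0.14 (SE 0.21) in double-KO. Its dimmer second probe differed by 0.57 in Ezh1-het (SE 0.16, adjusted p over all probes = 0.0452), where 6.35% of all probes were called. Nphs1 was well above background on 2 of 4 control arrays, its difference was 1.92 with the scanner software's own ratio, and the call was lost without Ezh1-het 4 (0.89, adjusted p = 0.0503).

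Ptpro encodes a receptor tyrosine phosphatase of the podocyte's apical and foot process membrane. Its log2 ratios were -0.03, -0.40, -0.76 and -0.05 in control, -0.86, -0.24, 0.06 and 0.81 in Ezh2-KO, 1.21, 0.94, 0.66 and 0.95 in Ezh1-het, and 0.47, -0.06, 0.35 and -0.23 on the double-KO arrays. Ezh1-het arrays again lay above every control, and the Ezh2-KO arrays ran from below the lowest control to above the highest. The difference of Ptpro from control was 1.25 in Ezh1-het (SE 0.27, 2.38-fold, adjusted p = 0.0131), with 1.29 on slide 1 and 1.21 on slide 2. It was 0.25 (SE 0.27) in Ezh2-KO and 0.44 (SE 0.27) in double-KO.

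The other genes of the slit diaphragm group did not pass the threshold in the fit of all 16 arrays with equal weights. Magi2, a scaffold that binds nephrin, was at 0.32, 0.50, 0.14 and 0.33 in control and at -0.12, -0.09, -0.09 and -0.04 in Ezh1-het. These groups did not overlap, and the difference was -0.41 (SE 0.17, adjusted p = 0.144). In Ezh2-KO and double-KO Magi2 differed from control by -0.35 and -0.33. With array weights Magi2 passed in double-KO too (-0.46, adjusted p = 0.0210). With median centring Magi2 was at 0.05, 0.03 and 0.09, which set against the all-gene median is -0.36, -0.415 and -0.29. Kirrel, which encodes the nephrin-binding protein Neph1, differed by -0.04, -0.005 and 0.12 in Ezh2-KO, Ezh1-het and double-KO (SE 0.09). Cd2ap, which links nephrin to actin, differed by -0.01, -0.07 and -0.13 (SE 0.09). The signs of Kirrel and Cd2ap in Ezh2-KO and Ezh1-het turned with median centring, where the all-gene medians were 0.41 and 0.44.

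The apical surface and adhesion genes held 3 of the 9 calls in Ezh1-het. Podxl encodes podocalyxin, the negatively charged sialomucin that keeps foot processes apart. It was at 0.10, -0.25, -0.42 and -0.06 in control, -0.48, 0.11, 0.35 and 0.77 in Ezh2-KO, 0.88, 0.76, 0.53 and 0.99 in Ezh1-het, and 0.14, 0.05, 0.30 and -0.17 on the double-KO arrays. Every Ezh1-het array exceeded every control, at a difference of 0.94 (SE 0.20, 1.93-fold, adjusted p = 0.0110). The slides gave 0.89 and 1.00. Podxl was well above background on 1 control array and on 3, 4 and 3 arrays of Ezh2-KO, Ezh1-het and double-KO. With the software's own ratio its Ezh1-het difference was 3.35 (SE 0.85, adjusted p = 0.0327), so the size of the rise is uncertain.

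Thsd7a encodes a thrombospondin domain protein of the foot process membrane, known as an autoantigen in membranous nephropathy. Its ratios were -0.36, -0.14, -0.41 and 0.29 in control, -0.38, 0.07, 0.52 and 0.49 in Ezh2-KO, 1.12, 0.65, 0.60 and 0.85 in Ezh1-het, and 0.53, 0.16, 0.26 and -0.05 on the double-KO arrays. The Ezh1-het arrays were above all controls and all Ezh2-KO arrays. The difference from control was 0.96 (SE 0.20, 1.94-fold, adjusted p = 0.00998), and both other probes of Thsd7a that were tested passed the threshold too, at 1.05 (adjusted p = 0.0111) and 0.76 (adjusted p = 0.00147). With the software's own ratio the difference of Thsd7a was 2.00 (SE 0.49). Thsd7a was at 0.33 (SE 0.20) in Ezh2-KO and 0.38 (SE 0.20) in double-KO, neither past the threshold.

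Itga3 encodes the alpha 3 integrin, the podocyte's receptor for laminin. It was at -0.10, -0.31, -0.37 and -0.11 in control, 0.30, 0.34, 0.23 and 0.55 in Ezh2-KO, 0.31, 0.22, 0.36 and 0.52 in Ezh1-het, and 0.21, 0.31, 0.37 and 0.33 on the double-KO arrays. All 12 knockout arrays were above all 4 controls. The difference was 0.58 in Ezh2-KO (adjusted p = 0.00308), 0.57 in Ezh1-het (adjusted p = 0.00175) and 0.53 in double-KO (adjusted p = 0.00203), each with SE 0.09, or 1.49-, 1.49- and 1.44-fold. A second, dimmer Itga3 probe to the same RefSeq transcript gave differences of 0.01, 0.03 and 0.03 (SE 0.09), so the rise rests on 1 of 2 probes. The Ezh2-KO call of Itga3 was lost without controls 2 and 3 (0.46, adjusted p = 0.0694).

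Dag1, the matrix receptor dystroglycan, differed by -0.19, -0.005 and -0.28 from control (SE 0.18), the sign in Ezh1-het turning with median centring (0.67). Npnt encodes nephronectin, a matrix ligand made by podocytes. It was at 0.26, 0.53, -1.25 and 0.31 in control and at -1.31, -0.37, 0.18 and 0.79 in Ezh2-KO, so 1 control array and 1 Ezh2-KO array were far below the rest. Its differences of -0.14, 0.44 and -0.41 (SE 0.40) did not pass the threshold. Without control 3 and Ezh2-KO 1, an alternative chosen after seeing the data, Npnt in double-KO was at -0.81 (SE 0.23, adjusted p = 0.0449).

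Of the 7 cytoskeletal genes, Plce1 rose in Ezh1-het and Actn4 fell in double-KO. Actn4 encodes the actin crosslinker alpha-actinin 4, mutated in familial focal segmental glomerulosclerosis. It was at -0.02, -0.09, -0.04 and 0.09 in control, -0.31, -0.19, -0.10 and -0.11 in Ezh2-KO, -0.31, -0.25, -0.11 and -0.27 in Ezh1-het, and -0.41, -0.34, -0.34 and -0.32 on the double-KO arrays. Every knockout array was below every control, and every double-KO array was below every array of the other groups. The difference in double-KO was -0.34 (SE 0.07, 1.27-fold lower, adjusted p = 0.00876). With median centring it was 0.26, where the all-gene median was 0.38, so that Actn4 lay at -0.11 against it. In Ezh1-het Actn4 was at -0.22 (adjusted p = 0.0667) and in Ezh2-KO at -0.16 (adjusted p = 0.200). Actn4 is expressed in many kidney cell types, so its level is not one of podocytes alone.

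Plce1 encodes a phospholipase C needed for glomerular development. It was at -0.10, -0.24, -0.19 and -0.18 in control and at 0.26, 0.23, 0.04 and 0.33 in Ezh1-het, with no overlap. The difference was 0.39 (SE 0.09, 1.31-fold, adjusted p = 0.0153), and its second probe differed by 0.23 (adjusted p = 0.148). Plce1 was at 0.17 in Ezh2-KO and 0.16 in double-KO (SE 0.09). The Ezh1-het call was lost without Ezh1-het 4 (0.35, adjusted p = 0.0595).

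Clic5, a chloride channel family protein that tethers ezrin and podocalyxin to actin, and Arhgap24, a GTPase-activating protein for Rac, varied widely within groups. Clic5 was at -0.10, -0.50, -1.21 and -0.17 in control, -0.73, -0.65, -0.25 and 0.37 in Ezh2-KO, 0.94, 0.26, 0.08 and 0.26 in Ezh1-het, and -0.34, -0.76, -0.41 and -1.07 on the double-KO arrays. Its Ezh1-het arrays did not overlap with control, at a difference of 0.88 (SE 0.27, adjusted p = 0.0612). Without control 1 the difference was 1.01 and past the threshold (adjusted p = 0.0488). Arhgap24 was at 0.02, -0.37, -1.97 and 0.07 in control, -1.78, -0.67, 0.07 and 0.59 in Ezh2-KO, 0.75, 0.22, 0.03 and 0.14 in Ezh1-het, and -0.67, -1.32, -0.79 and -1.74 on the double-KO arrays. Only control 3 of the controls lay as low as the double-KO arrays. The differences of Arhgap24 were 0.12, 0.85 and -0.57 (SE 0.47), none past the threshold. Without control 3 and Ezh2-KO 1 the double-KO difference was -1.04 (SE 0.28, adjusted p = 0.0396).

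Synpo encodes synaptopodin, an actin-binding protein of foot processes, and its probes gave unlike answers. The brightest differed by -0.09, -0.02 and 0.01 from control (SE 0.07), and a second by 0.12, 0.05 and 0.02. The third, annotated to another RefSeq transcript, was at -0.23 ± 0.17 (SD, n = 4) in control and 0.36 ± 0.18 in Ezh1-het, a difference of 0.59 (SE 0.17, adjusted p over all probes = 0.0478). For Synpo the call therefore depended on the probe. Nes, the intermediate filament nestin, differed by 0.16, -0.09 and -0.01 (SE 0.09), with 0.50 in Ezh1-het under median centring. Rhpn1 differed by 0.28, 0.29 and 0.09 (SE 0.12, smallest adjusted p = 0.138).

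In the basement membrane group, Lama5 rose in every knockout genotype. It encodes the laminin alpha 5 chain, a subunit of the mature glomerular laminin that binds alpha 3 integrin. Lama5 was at -0.08, -0.47, -0.33 and -0.13 in control, 0.37, 0.48, 0.20 and 0.62 in Ezh2-KO, 0.48, 0.63, 0.53 and 0.66 in Ezh1-het, and 0.40, 0.26, 0.41 and 0.07 on the double-KO arrays. All 12 knockout arrays were above all controls, and double-KO 4 came closest to them. The difference was 0.67 in Ezh2-KO (SE 0.11, 1.60-fold, adjusted p = 0.00369), 0.83 in Ezh1-het (1.78-fold, adjusted p = 0.000441) and 0.54 in double-KO (1.45-fold, adjusted p = 0.00744). On slide 1 the differences were 0.71, 0.83 and 0.61, and on slide 2 0.64, 0.83 and 0.47. Leaving out any 1 array kept all 3 calls of Lama5, but without controls 2 and 3 those in Ezh2-KO (0.52, adjusted p = 0.0814) and double-KO (0.39, adjusted p = 0.116) were lost. Lama5 is also made by tubule epithelium.

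The collagen IV chains alpha 3, alpha 4 and alpha 5 form the mature glomerular network and are the genes of Alport syndrome. Col4a4 was at -0.21, 0.07, -0.51 and -0.19 in control and at 0.54, 0.0008, 0.21 and 0.29 in Ezh1-het. Control 2 lay above Ezh1-het 2, so the groups overlapped. The difference was 0.47 (SE 0.14, 1.39-fold, adjusted p = 0.0449). The Col4a4 call was lost without any 1 of control 1, control 3, control 4, Ezh1-het 1, Ezh1-het 3 and Ezh1-het 4, where the difference ran from 0.37 to 0.49 and the adjusted p from 0.0683 to 0.115. Col4a3 was at 0.33 in Ezh1-het (SE 0.16, adjusted p = 0.203) and was not well above background on any double-KO array. Col4a5 differed by 0.12, 0.24 and -0.14 (SE 0.19), and Lamb2, the laminin beta 2 chain, by 0.14, 0.02 and 0.03 (SE 0.14).

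None of the 5 transcription factors passed the threshold in any of the 3 comparisons with control by limma. At an unadjusted p under 0.05 the count was 2 in Ezh1-het, for Tcf21 and Foxc2, and 0 in Ezh2-KO and double-KO, against 25.4%, 21.3% and 17.1% of all genes. With array weights both passed in Ezh1-het (0.37, adjusted p = 0.0400, and 0.32, adjusted p = 0.00849). Wt1, the zinc-finger factor required for podocyte identity, was at 0.13, -0.07, 0.44 and -0.09 in control, 0.64, 0.47, -0.09 and 0.13 in Ezh2-KO, 0.03, 0.09, 0.09 and 0.33 in Ezh1-het, and -0.04, -0.35, 0.00 and 0.06 on the double-KO arrays. All 4 groups of Wt1 overlapped, with differences of 0.18, 0.03 and -0.18 (SE 0.15). The 95% intervals were -0.14 to 0.51, -0.29 to 0.36 and -0.51 to 0.14. Tcf21, a basic helix-loop-helix factor, was at 0.42 in Ezh1-het (SE 0.17, adjusted p = 0.132), and Foxc2, a forkhead factor, was at 0.26 (SE 0.09, adjusted p = 0.0941). Lmx1b, the LIM homeodomain factor of nail-patella syndrome, differed by -0.07, -0.04 and 0.10 (SE 0.10). Dach1, a transcriptional cofactor, differed by 0.15, 0.28 and 0.25 (SE 0.17).

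Of the 2 secreted signals, Sema3g rose in Ezh1-het. It encodes a class 3 semaphorin that podocytes make. Sema3g was at -0.04, -0.12, -0.14 and 0.12 in control, 0.24, 0.21, 0.13 and 0.29 in Ezh2-KO, 0.44, 0.39, 0.40 and 0.36 in Ezh1-het, and 0.22, -0.03, 0.02 and 0.02 on the double-KO arrays. The Ezh1-het arrays lay close together and above all 12 other arrays. The difference from control was 0.44 (SE 0.08, 1.36-fold, adjusted p = 0.00256) in Ezh1-het and 0.10 (SE 0.08) in double-KO. In Ezh2-KO it was 0.26 (adjusted p = 0.0678) with no overlap, and 0.32 (adjusted p = 0.0444) without control 4. Sema3g also passed in Ezh2-KO with the software's own ratio (0.60, adjusted p = 0.0234) and with array weights (0.23, adjusted p = 0.0175). With the software's ratio its Ezh1-het difference was 1.01 (SE 0.12), so the size of the rise is uncertain. Vegfa, the endothelial growth factor through which podocytes sustain glomerular capillaries, differed by -0.02, -0.14 and -0.10 by its brightest probe (SE 0.08), and by 0.48 in Ezh2-KO with median centring. Its 4 probes differed in sign, from -0.50 to 0.23 in Ezh1-het, and none passed the threshold in any comparison with control.

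**Figure D3:**
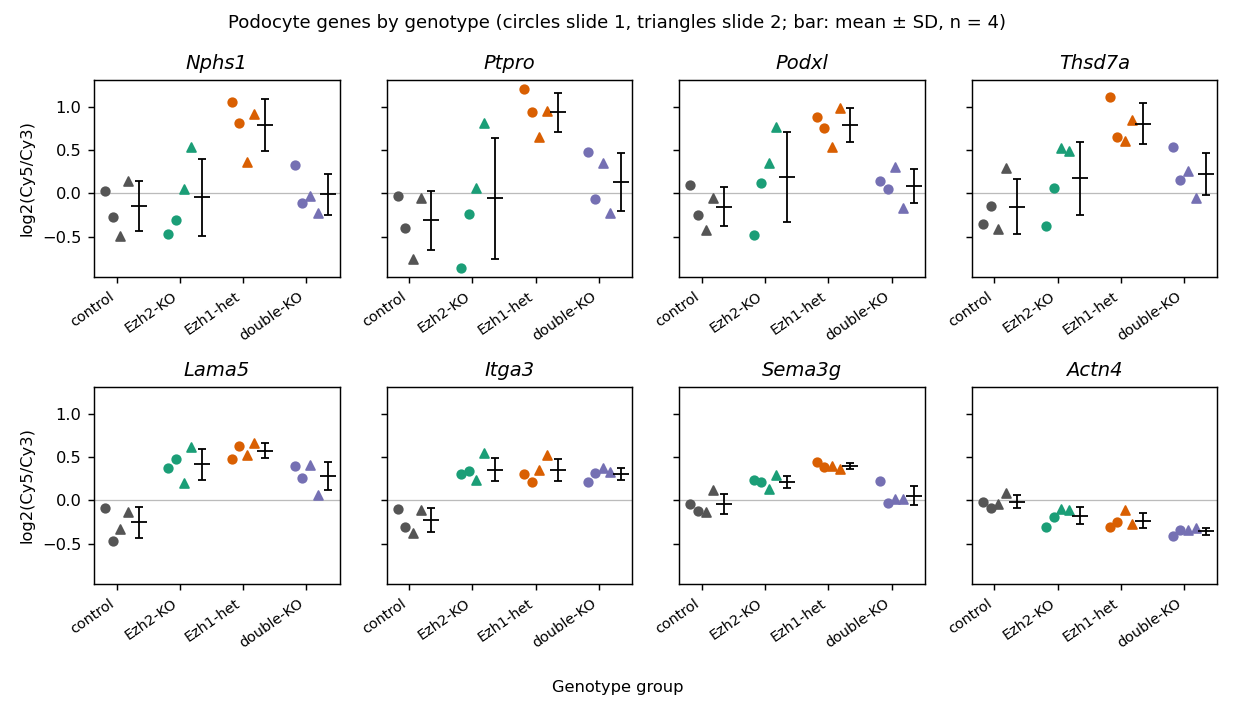
Log2(Cy5/Cy3) of 8 podocyte genes on each array by genotype (circles slide 1, triangles slide 2), with the mean ± SD of 4 arrays as a bar beside them. Nphs1, Ptpro, Podxl and Thsd7a are high on the Ezh1-het arrays, and Lama5 and Itga3 lie above control on all 12 knockout arrays. Actn4 is lowest in double-KO, at -0.41 to -0.32 (its difference from control is 0.26 with median centring, where the all-gene median is 0.38).

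Whether Ezh1 dose changed these genes within the Ezh2-deleted kidneys was asked by 3 further comparisons, which share the knockout arrays with those above. By limma 0 of 29 members passed the threshold in Ezh1-het against Ezh2-KO (0.0575% of all genes called), 0 in double-KO against Ezh1-het (0.377%) and 0 in double-KO against Ezh2-KO (0.914%). At an unadjusted p under 0.05 the counts were 11, 12 and 3, against 7.37%, 13.7% and 12.7% of all genes. The 12 members in double-KO against Ezh1-het were all lower in double-KO. At the same unadjusted threshold 12 of 12 proximal tubule markers and 7 of 10 loop and distal tubule markers were lower there, and 0 higher. Of 46 other podocyte genes 7 were lower and 1 higher, and of 8 collecting duct markers 1 was lower and 0 higher. The fall is thus not particular to podocyte genes. In this comparison 11 members did not overlap and were lower, against 9.83% of all genes, and the members' median was -0.23 with an all-gene median of -0.03. The differences were -0.80 for Nphs1 (SE 0.21, adjusted p = 0.0995), -0.81 for Ptpro (SE 0.27, adjusted p = 0.189), -0.71 for Podxl (SE 0.20, adjusted p = 0.126), -1.03 for Clic5 (SE 0.27, adjusted p = 0.102) and -0.34 for Sema3g (SE 0.08, adjusted p = 0.0621). Of these, Sema3g passed without double-KO 1 (-0.40, adjusted p = 0.0423). A rise over control in Ezh1-het and none past the threshold in double-KO is thus not shown to differ at the adjusted threshold. With only the 2 groups in the fit 8 members passed, against 6.6% of all genes, and with array weights 8, against 7.12%.

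Ezh1-het against Ezh2-KO gave 0.84 for Nphs1 (SE 0.21, adjusted p = 0.374) and 1.00 for Ptpro (SE 0.27, adjusted p = 0.476). Both passed without Ezh2-KO 4, at 1.03 (adjusted p = 0.0384) and 1.29 (adjusted p = 0.0348). The values were unlike on the 2 slides, which was not tested for this comparison. On slide 1 the differences of Nphs1, Ptpro and Podxl were 1.32, 1.63 and 1.00, and on slide 2 they were 0.35, 0.37 and 0.20. Against control, Ezh2-KO was at -0.27 for Nphs1, -0.34 for Ptpro and -0.11 for Podxl on slide 1, and at 0.47, 0.84 and 0.80 on slide 2. In all, 14 of 29 members had the same sign on both slides in Ezh2-KO against control, compared with 25 in Ezh1-het and 27 in double-KO. The share over all genes was not computed, so this is not shown to be particular to podocyte genes. The difference between slides was itself tested, after seeing the data, and passed the threshold by limma for 0 members in each comparison with control, while at an unadjusted p under 0.05 the counts were 7 for Ezh2-KO, 0 for Ezh1-het and 0 for double-KO. For Ptpro in Ezh2-KO it was 1.18 (adjusted p = 0.237).

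A wider list of 48 other podocyte genes, of which 46 were measured, was read in the same fits. This list too was chosen with earlier results of these data known. In Ezh1-het 4 rose and 1 fell, or 10.9% called against 7.81% of all genes. The 4 include Tdrd5, which met the filter on dim probes only through Ezh1-het, so its call adds no independent support to this share. In Ezh2-KO 1 rose and 1 fell, or 4.35% against 3.08%. In double-KO 0 passed by limma, against 4.62%, and 3 were at an unadjusted p under 0.05, against 17.1% of all genes. The medians were 0.15, 0.14 and 0.05. Crb2 was at -0.17, -0.04, -0.34 and -0.19 in control, 0.54, 0.22, 0.004 and 0.26 in Ezh2-KO, 0.34, 0.16, 0.23 and 0.31 in Ezh1-het, and -0.19, -0.24, -0.13 and -0.64 on the double-KO arrays. All Ezh2-KO and Ezh1-het arrays of Crb2 were above all controls and all double-KO arrays. Crb2, a polarity protein of the slit, rose by 0.45 in Ezh1-het (SE 0.12, adjusted p = 0.0342) and was at 0.44 in Ezh2-KO (adjusted p = 0.0544) and -0.11 in double-KO. Crb2 in double-KO differed from Ezh2-KO by -0.55 (adjusted p = 0.0379) and from Ezh1-het by -0.56 (adjusted p = 0.0573). Leaving out 1 array lost the Ezh1-het call of Crb2 in 7 of 8 cases, all but control 2 (0.40 to 0.48, adjusted p up to 0.0939). It lost the call against Ezh2-KO in 6 of 8, all but Ezh2-KO 3 and double-KO 3 (-0.59 to -0.44, adjusted p up to 0.113), and without Ezh2-KO 3 Crb2 passed in Ezh2-KO (0.52, adjusted p = 0.0290).

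Agrn and Hspg2 encode the heparan sulphate proteoglycans agrin and perlecan of the basement membrane. Agrn rose by 0.71 in Ezh1-het (SE 0.19, adjusted p = 0.0348), a call lost without any 1 of control 2, control 3, Ezh1-het 2, Ezh1-het 3 and Ezh1-het 4 (0.58 to 0.72, adjusted p up to 0.109), and its second probe was at -0.07. Hspg2 rose by 0.44 in Ezh2-KO (SE 0.11, adjusted p = 0.0413) and 0.39 in Ezh1-het (adjusted p = 0.0448). The first call was lost without any array but control 1 (0.36 to 0.48, adjusted p up to 0.128) and the second without any array but control 1 and Ezh1-het 1 (0.31 to 0.40, adjusted p up to 0.147). Its second probe was at 0.17 and 0.08. Tdrd5, a tudor domain gene, was not well above background on any control or double-KO array. It was so on 3 Ezh1-het arrays and 1 Ezh2-KO array, and met the filter of 4 arrays only through Ezh1-het. The ratios of Tdrd5 gave a 1.32-fold rise in Ezh1-het (difference 0.40, SE 0.09, adjusted p = 0.0170). Cy5 levels against the background limit gave 1.34-fold. Both folds are estimates without their error, so neither is a floor for the rise. The Tdrd5 call was lost without control 3, Ezh1-het 2 or Ezh1-het 4 (0.34 to 0.38, adjusted p up to 0.0597).

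Robo2, the Slit receptor that binds nephrin through Nck, was the podocyte gene on this list that fell. It was at 0.00, -0.05, 0.45 and 0.00 in control, -0.45, -0.49, -0.25 and -0.60 in Ezh2-KO, -0.35, -0.29, -0.46 and -0.34 in Ezh1-het, and -0.28, -0.33, -0.25 and -0.09 on the double-KO arrays. All 12 knockout arrays were below all controls. Robo2 fell by 0.55 in Ezh2-KO (SE 0.11, adjusted p = 0.0112) and by 0.46 in Ezh1-het (adjusted p = 0.0162), where median centring gave -0.03 and 0.09 (-0.44 and -0.35 against the all-gene median), and was at -0.34 in double-KO (adjusted p = 0.0890). A second Robo2 probe to the same transcript differed by -0.34 (SE 0.10, adjusted p over all probes = 0.0763), -0.21 (adjusted p = 0.217) and -0.06 (adjusted p = 0.833), so the calls rest on 1 of 2 probes. Of the 5 laminin and collagen IV chains of the immature glomerular basement membrane, Col4a2 rose in Ezh1-het, by 0.43 (SE 0.11, adjusted p = 0.0286). That call was lost without any 1 of control 2, control 3, Ezh1-het 2, Ezh1-het 3 and Ezh1-het 4 (0.39 to 0.45, adjusted p up to 0.0938). Col4a2 was at 0.41 in Ezh2-KO (adjusted p = 0.0541), or 0.47 without Ezh2-KO 3 (adjusted p = 0.0410).

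**Figure D4:**
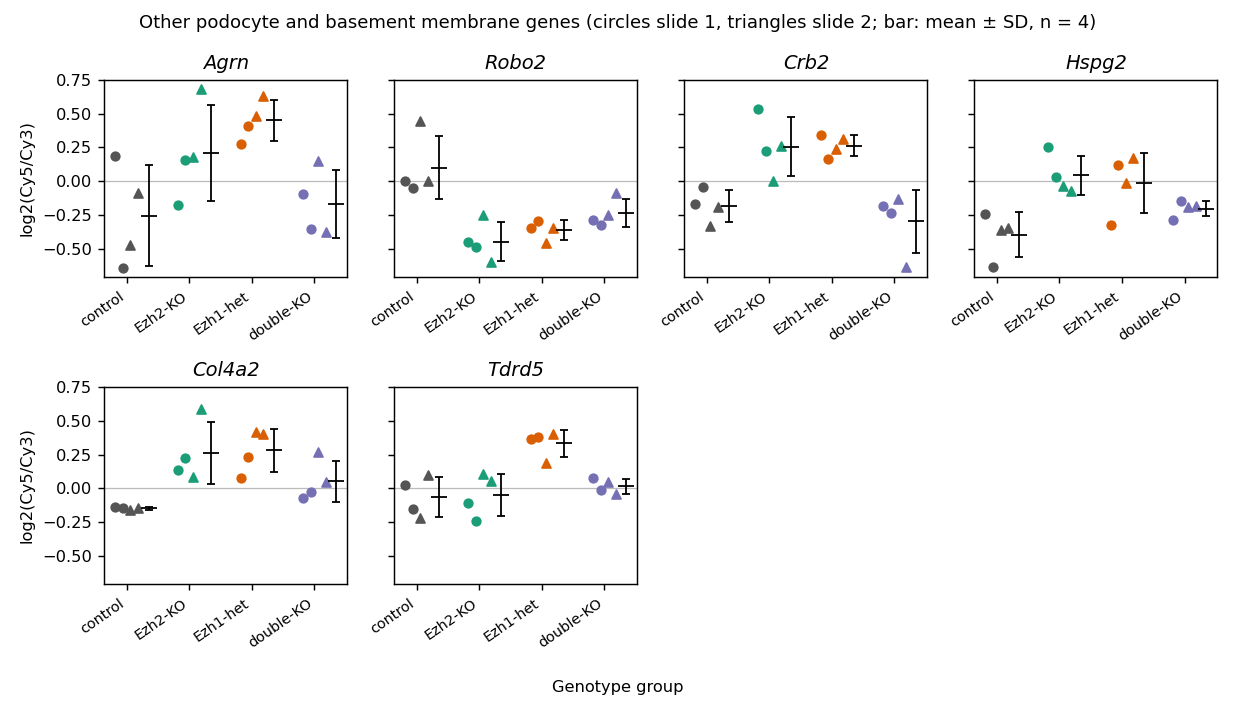
Log2(Cy5/Cy3) of 5 other podocyte genes and the immature basement membrane chain Col4a2 on each array by genotype (circles slide 1, triangles slide 2; bar, mean ± SD of 4 arrays). Crb2 lies above all controls on the Ezh2-KO and Ezh1-het arrays, and Robo2 lies below all controls on the 12 knockout arrays. With median centring Robo2 is 0.09 above control in Ezh1-het, where the all-gene median is 0.44.

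Markers of other kidney cells were read in the same arrays. The median over 12 proximal tubule markers per array was -2.10 to 0.61 in control, -2.21 to 0.18 in Ezh2-KO, -0.30 to 0.42 in Ezh1-het and -2.59 to -1.20 in double-KO. Over the 29 podocyte members it was -0.27 to -0.01, -0.11 to 0.13, 0.19 to 0.22 and -0.12 to 0.01. Control 3, Ezh2-KO 1 and double-KO 4 were the lowest arrays of their groups in both lists. By limma 0 of 12 proximal tubule markers passed in any comparison with control, and 0, 1 and 8 were at an unadjusted p under 0.05 in Ezh2-KO, Ezh1-het and double-KO (all genes 21.3%, 25.4% and 17.1%), with medians of -0.49, 0.49 and -1.31. The loop and distal tubule markers had 0, 1 and 0 of 10 higher and medians of 0.15, 0.74 and -0.37. Early nephron and parietal markers had 1, 4 and 3 of 14 higher and 0 lower, with medians of 0.37, 0.59 and 0.11. Over all genes 2.4%, 5.91% and 3.71% were called higher in these comparisons, and 0.677%, 1.9% and 0.914% lower.

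Within the glomerulus, 0 of 10 measured endothelial markers passed in any of the 3 comparisons, with medians of 0.21, 0.06 and -0.13. At an unadjusted p under 0.05 there was 1 in each, against 21.3%, 25.4% and 17.1% of all genes. Mesangial and stromal markers had 2, 1 and 2 of 12 higher and 0 lower, where 2.4%, 5.91% and 3.71% of all genes were higher. Nephron progenitor markers had 1, 1 and 1 of 10 higher and 2, 3 and 2 lower, where 0.677%, 1.9% and 0.914% of all genes were lower. Collecting duct markers had 0 of 8 called in each. At an unadjusted p under 0.05 they had 1, 3 and 1, beside the same all-gene shares as the endothelial markers. Myeloid markers had 0 of 9 higher and 1 lower in each. The part of these other cells in the podocyte differences was not tested.

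**Figure D5:**
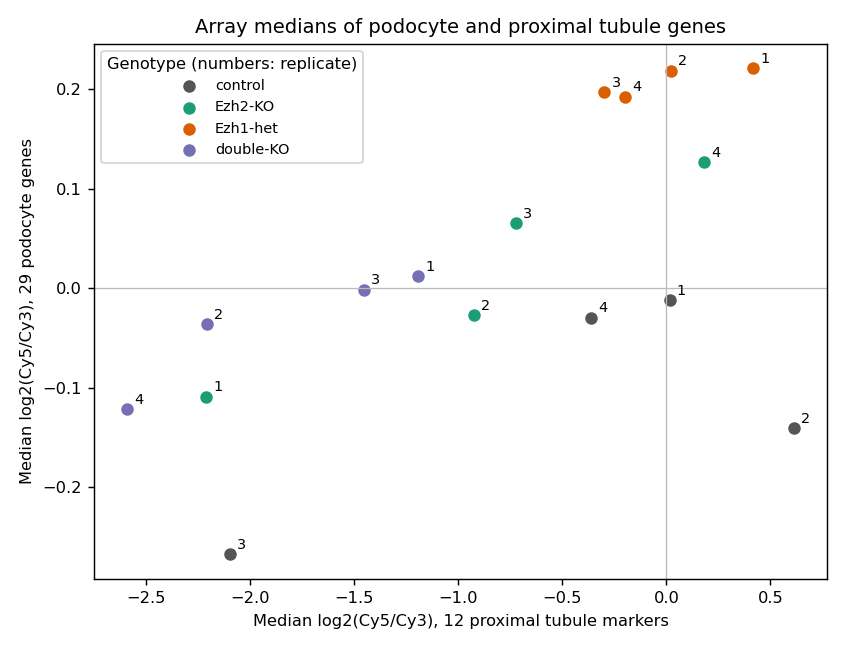
Median log2(Cy5/Cy3) over 29 podocyte genes (vertical axis) against the median over 12 proximal tubule markers (horizontal axis), 1 point per array, coloured by genotype and numbered by replicate. The 4 Ezh1-het arrays lie highest, at 0.19 to 0.22, and control 3 lies lowest on the vertical axis, at -0.27.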

How the data were processed

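Total kidney RNA of 16 samples was measured on 2-colour Agilent arrays, each sample in Cy5 against control 1 in Cy3, with no dye swap. The deposited intensity values (median spot and background signals, per the file headers) and the deposited log10 ratio of processed Cy5 over Cy3 came from Agilent Feature Extraction 10.7.3.1, also named in the submitters' processing notes. The log10 ratio, which the authors' value table repeats in rounded form, served as an alternative. Its columns had a median of 0.

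Median intensities were corrected with normexp (offset 50) and normalised by loess within arrays, with control spots at weight 0 and outlier spots left out (limma 3.58.1, R 4.3.3). Spots of a probe were averaged. Probes had to be well above background in the Cy5 channel on 4 or more of 16 arrays (34731 were), and the brightest named probe stood for its gene. The array grid was annotated on mm9 and its coordinates were not used. Symbols came from a RefSeq table (GRCm38.p6) by unversioned accession, and 32994 of 56605 probes received 1 symbol, with none receiving several.

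All 16 arrays entered 1 limma fit (lmFit, eBayes) without covariates. Tests were two-sided, adjusted by Benjamini-Hochberg over 15646 genes (threshold 0.05), and intervals are 95%. Probe-level p-values were adjusted over 34731 probes in the same design. P-values measure the spread between arrays that the labels call biological replicates, and the number of arrays limits the precision. No spot was saturated. Every member is named, and of the other podocyte genes and immature chains those past the threshold against control, up to 12; a few genes of that list are not reported here. The members and lists were chosen with earlier results of these data known. The fit was tested on simulated data with independent noise for each gene and array. That test cannot give the error rate under variation of whole arrays. The alternatives were median centring, the software's ratio, other filters and probe rules, slide and replicate blocks, single slides, only the groups compared, array weights, trend and robust variance, and arrays left out.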

Additional observations from a re-analysis of the deposited data

Results flagged for a closer look

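In 140 pairs of a gene and a group of 4 arrays, 6 had an array far from the other 3 by Dixon's test, which by chance marks about 1 in 20 such groups. Among the members, Npnt on control 3 was at -1.25, with the other controls from 0.26 to 0.53. Lamb2 on Ezh1-het 1 was at -0.45, with the others from -0.002 to 0.06. Dag1 on Ezh1-het 2 was at -0.012, with the others from 0.19 to 0.22, and Lmx1b on Ezh1-het 3 was at 0.38, with the others from 0.03 to 0.09. Among the other podocyte genes, Robo2 on control 3 was at 0.45, with the other controls from -0.05 to 0.003. Tdrd5 on Ezh1-het 3 was at 0.19, with the others from 0.37 to 0.40. Control 3 accounted for 2 of the 6.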

How the results depend on the processing

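Counts below are members called, of 29 measured. In Ezh2-KO, Ezh1-het and double-KO against control the main counts were 2, 9 and 3. Median centring gave 10, 21 and 5, all higher, where 43.7%, 51.4% and 34.3% of all genes were called. Slide 1 alone gave 0, 1 and 0 (1.04%, 0.882% and 1.46% of all genes), with 2 arrays a group. Slide 2 alone gave 0, 0 and 0 (0.0383%, 0.236% and 0.722%). Ezh2-KO gave 0 with only the 2 groups in the fit (0.377%) and 5 with array weights (15.3%). Ezh1-het gave 5 where probes had to be above background on all 16 arrays (24 members left, 6.97% of all genes called). Without controls 2 and 3 Ezh2-KO gave 0 (0.499%) and Ezh1-het 2 (1.5%). Without control 3 and Ezh2-KO 1 double-KO gave 5 (6.97%). Leaving out 1 array gave 2 to 3, 6 to 9 and 3 to 3. In Ezh1-het against Ezh2-KO the count of 0 became 8 on slide 1 alone (5.62% of all genes) and 12 with array weights (20.4%). In double-KO against Ezh1-het it became 1 with the software's ratio (0.236%) and 1 with probes averaged (0.435%). It became 8 there with only the 2 groups (6.6%) and 8 with array weights (7.12%). In double-KO against Ezh2-KO it became 4 with array weights (18.6%). Leaving out 1 array gave 0 to 2, 0 to 1 and 0 to 0. The cause of these changes was not tested.

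Single genes changed sign, with a call on at least 1 side, in 10 cases. With median centring, Cd2ap, Kirrel and Vegfa in Ezh2-KO were at 0.53, 0.46 and 0.48, Cd2ap, Dag1, Kirrel, Nes and Robo2 in Ezh1-het at 0.52, 0.67, 0.54, 0.50 and 0.092, and Actn4 in double-KO at 0.26. With array weights, Magi2 in double-KO against Ezh2-KO was at -0.33. Of the other values of single genes, 142 lost and 102 gained a call, and 4330 kept their side of the threshold.

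With the replicate number as a block the counts were 2, 8 and 3 against control (2.95%, 7.19% and 4.73% of all genes). Among the knockouts they were 0, 0 and 0 (0.0256%, 0.262% and 0.78%). Whether the numbers pair the samples was not settled. Deviations from group means correlated above 0.1 in 3, 1, 2 and 2 of 6 pairs of replicates 1 to 4, with r from -0.48 to 0.51. These deviations also hold variation of whole arrays, so they can neither show nor exclude a pairing. Signal over background limits Podxl, Nphs1, Col4a3 and Tdrd5.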
